A study of Arabidopsis thaliana with 20 samples.

Results

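In 33 *Arabidopsis* genes the mRNA carries a conserved peptide upstream open reading frame (uORF), and small RNAs of 21 and 22 nt from these genes were compared between flower buds of wild-type plants and of 3 exosome-related mutants. The 33 genes were taken by name from the 27415 genes of the count table, with the row of the main gene used in each case and the AdoMet decarboxylase genes left out. They were listed by name and annotation, with earlier results of these data known. The study asked which mRNAs become a source of small RNAs when cytosolic mRNA degradation is impaired. It comprised 20 libraries: 3 of the wild type (WT, accession Col-0), 5 of *cer7*, 6 of *rst1* and 6 of *ripr*.

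*CER7* encodes the exosome core subunit RRP45B, and *RST1* encodes a protein that co-purifies with the exosome. *RIPR* encodes a protein that co-purifies with RST1 and the Ski complex, a partner of the cytosolic exosome. Exosome subunits were less enriched with RIPR as bait than with RST1. The *cer7* libraries were 3 of *cer7-3*, labelled *cer7-gabi*, and 2 of *cer7-4*, labelled *cer7-sail*. The *rst1* libraries were 3 each of the T-DNA lines *rst1-2* and *rst1-3*. The *ripr* libraries were 3 each of *ripr(insT)* and *ripr(insC)*, labelled *riprT* and *riprC*, CRISPR alleles with 1 inserted base. All plants were Col-0, an accession without fully functional SOV, a second cytosolic 3′ to 5′ exonuclease, so every group including the wild type shared this background. By the labels, buds of 4 plants were pooled for each library, from plants kept at 20 °C for 3 weeks with 12 h of light and then 3 weeks with 16 h. The study's general methods describe 1 light regime and a larger pool of plants, and which applied to these libraries cannot be told from the sources.

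A uORF is a short reading frame in the 5′ leader of an mRNA, and ribosomes that translate it often do not reach the main reading frame. In the genes studied here the peptide sequence itself is conserved between plants. In several of them the peptide stalls the ribosome in response to a metabolite, as sucrose does for group S1 bZIP factors and phosphocholine for phosphoethanolamine methyltransferase. When the exosome or its partners fail, mRNA fragments can be copied by RNA-dependent RNA polymerase and diced into siRNAs of the length measured here.

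In the annotation of TAIR10.1 (RefSeq) all 33 genes had at least 1 annotated uORF, 39 in total, and each of these was a complete reading frame that ended before the main one. A single uORF was annotated in 29 genes, and the 4 genes of the *SAC51* group had more than 1. The encoded peptides had 16 to 87 residues (median 36), in leaders of 203 to 1107 bases (median 458). In some pairs of related genes the peptides were alike, by the share of residues identical over the shorter peptide. It was 75.6% between *bZIP2* and *bZIP44*, 68.3% between *bZIP2* and *bZIP11* and 92% between *NMT1* and *NMT2*. *TPPF* and *TPPG* had 83.3%, and *AT1G70780* and *AT1G23150* 74%. Other pairs were less alike. *bZIP1* and *bZIP53* had 40% to 53.6% with each other and with the other bZIP genes. *LHW* and *AT2G31280* had 47.1%, and *AT5G01710* and *AT1G58120* 30.6%. The map of the spliced transcripts shows where the uORFs lie in the genes with enough reads to be tested.

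**Figure D1:**
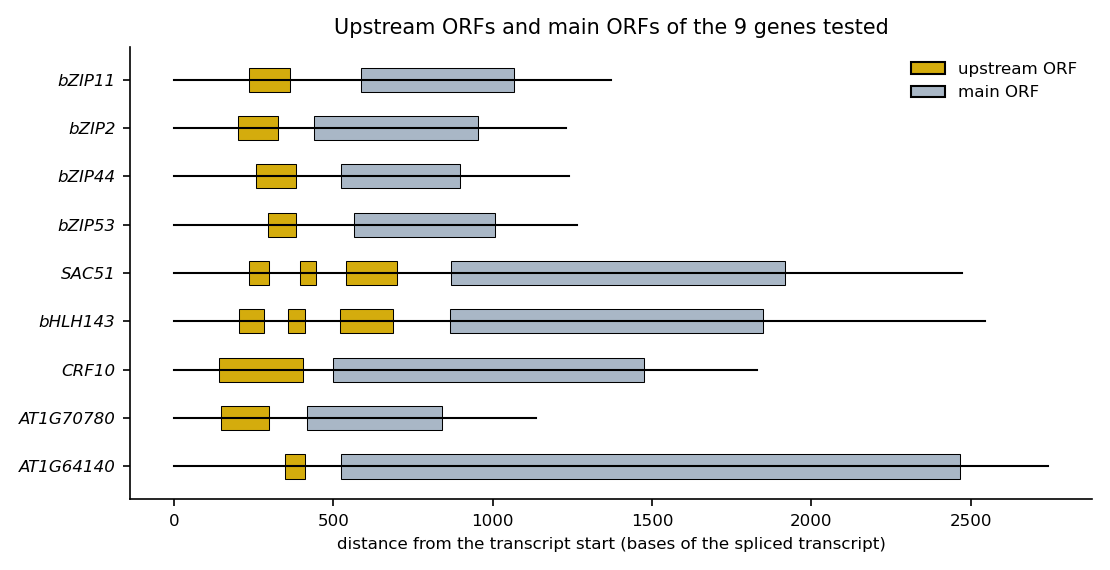
Upstream ORFs (yellow) and main ORFs (grey) along the spliced transcript of the 9 genes tested, with the distance from the transcript start in bases on the x axis. *SAC51* and *bHLH143* have 3 uORFs each and the other genes 1, and all uORFs end before the main ORF starts.

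The table could not place reads on the uORF or on the main frame. It holds 38 further entries whose identifiers lie next to those of the 33 genes and that the annotation does not list as genes. Of these, 36 repeat the counts of the neighbouring gene exactly in all 20 libraries, for 31 of the 33 genes. The 2 entries beside *bHLH144* hold 39 counts each against 50 for the gene, and *AT2G31280* has no such entry. Reads of these genes were therefore counted on more than 1 entry, and the values below are those of the whole gene. The use of strand in the counting is not given in the sources used here, and the transcript of *SAC51* overlaps that of *AT5G64330* on the opposite strand by 24 bases.

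Total counts per library were 203245 to 230727 in the wild type, 305475 to 522464 in *cer7*, 192747 to 296842 in *rst1* and 193616 to 371040 in *ripr*. They cover a single length class on genes, so they are not the depth of the libraries. Small RNA counts of the mutated genes were low (*CER7* at most 8, *RIPR* at most 4 and *RST1* at most 23 in any library) and do not check the labels, and small RNAs cannot check the tissue by marker genes. In bulk buds, fewer cells of a type and less RNA per cell cannot be told apart.

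The 33 genes gave few reads in every genotype and more in the mutants. They held 59, 72 and 75 counts in the wild-type libraries, 228 to 537 in *cer7* (median 396), 168 to 257 in *rst1* (median 210) and 141 to 355 in *ripr* (median 241.5). As a share of all counts, wild-type libraries had 0.0311% ± 0.00181 (SD, n = 3). *cer7* libraries had 0.0930% ± 0.0117 (SD, n = 5), *rst1* libraries 0.0808% ± 0.00760 (SD, n = 6) and *ripr* libraries 0.0804% ± 0.0121 (SD, n = 6). The lowest mutant share, 0.0691%, lay above the highest wild-type share, 0.0325%. *bZIP2* alone held 1261 counts over the 20 libraries, the most of any of the genes.

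Only 9 of the 33 genes passed the filter on low counts, against 2916 of all genes, and 24 did not. The 9 were *bZIP11*, *bZIP2*, *bZIP44*, *bZIP53*, *SAC51*, *bHLH143*, *CRF10*, *AT1G70780* and *AT1G64140*. In 8 of them every wild-type library had under 10 counts, and *AT1G70780* had 11, 7 and 7. The filter asks for a cutoff scaled to library size in as many libraries as the smallest group holds, here the wild type. None of the 9 reached it in every wild-type library. All 9 therefore passed through mutant libraries, where they had to be higher, and the counts of calls and medians among them are a description. A gene was called with a Benjamini-Hochberg adjusted p below 0.01 in edgeR's quasi-likelihood test, where its log2 fold change was also beyond 1 in either direction.

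In *cer7*, 8 of the 9 were raised, and 17.4% of all genes tested were. In *rst1* 3 of the 9 were raised, against 9.95% of all genes tested, and in *ripr* 4 of the 9, against 9.91%. None of the 9 was lowered in any mutant with edgeR or with DESeq2, where 2.19%, 0.652% and 0.72% of all genes tested were lowered in *cer7*, *rst1* and *ripr*, and all 9 log2 fold changes were positive in each mutant. The median log2 fold change of the 9 was 1.95 in *cer7*, 1.16 in *rst1* and 1.13 in *ripr*, where that of all genes tested was 0.07, 0.09 and 0.07. These sets differ in wild-type counts, and medians within ranges of count are given further on. The comparisons with the wild type share its 3 libraries. With library size in place of TMM scaling the median of all genes in *cer7* was -0.23, and 61.3% of all calls in *cer7* were raised in place of 88.8%. The numbers of the 9 genes raised were the same with both.

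**Figure D2:**
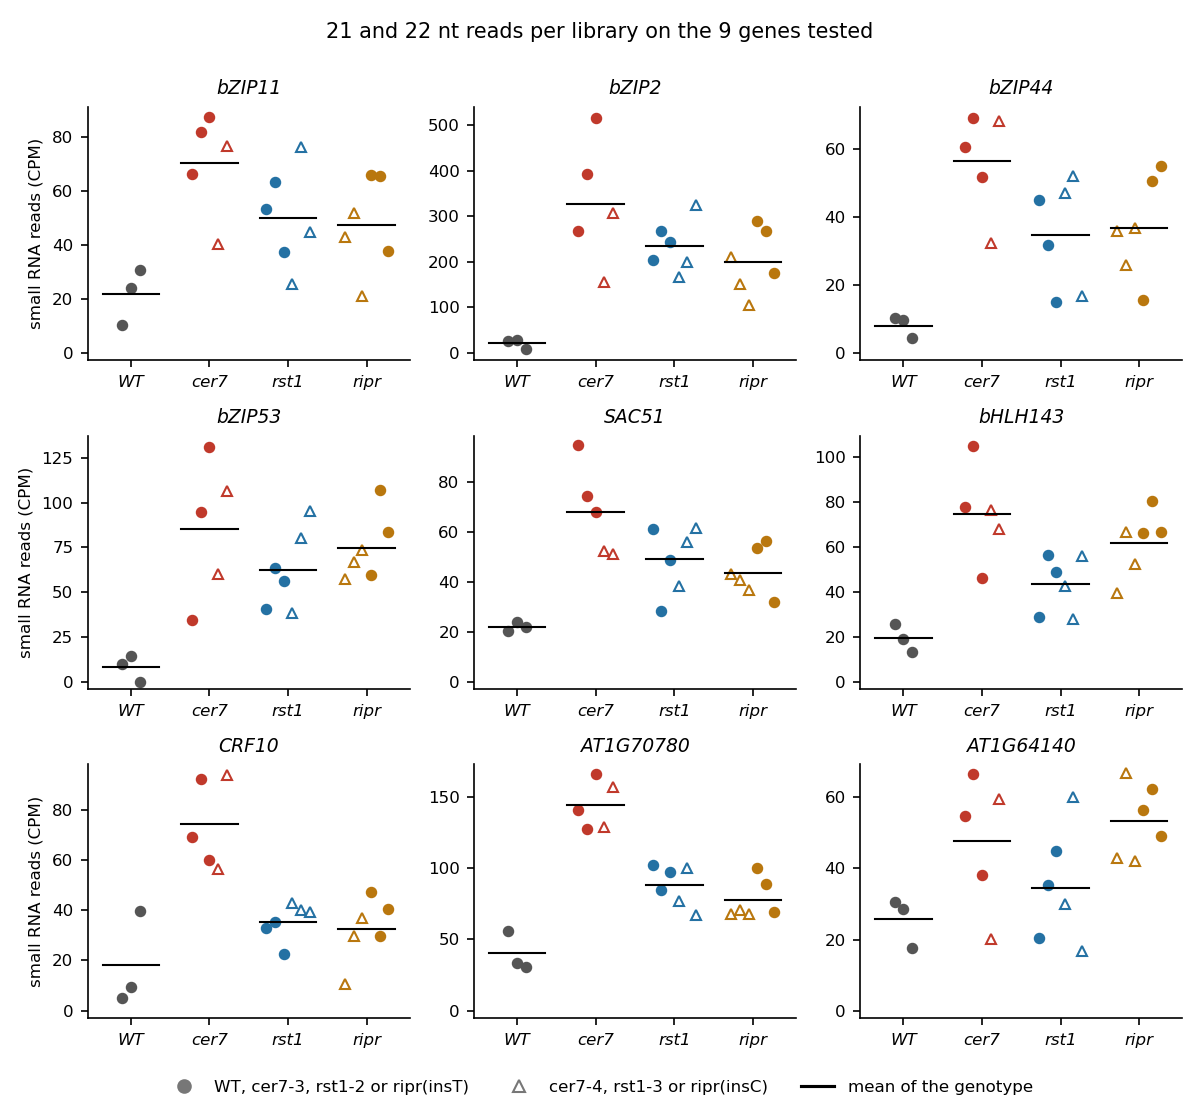
Reads per library, scaled to 1000000 counts on the tested genes (CPM) on a linear axis, for each of the 9 genes tested, in WT (3 libraries), *cer7* (5), *rst1* (6) and *ripr* (6), with filled circles and open triangles for the 2 alleles of a mutant and a line at the mean. In *bZIP2* the mutant libraries sit between 104.9 and 515.4 CPM, all above the wild type, whereas in *AT1G64140* *cer7* and *rst1* libraries overlap it.

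The group S1 bZIP genes encode transcription factors of sugar and energy signalling, and their uORF peptide lowers translation of the main frame when sucrose is high. In each mutant *bZIP2*, *bZIP53* and *bZIP44* had the 3 highest log2 fold changes of the 9. *bZIP53* and *bZIP44* had a mean under 3 wild-type counts and could pass the filter only with higher mutant counts. For 367 other tested genes with so few wild-type counts the median log2 fold change was 2.53, 1.96 and 2.00 in *cer7*, *rst1* and *ripr*. The order of these 2 genes among the 9 is therefore a description. *bZIP2* (*AT2G18160*, chromosome 2 from 7898012 to 7899242, minus strand) had 5, 6 and 2 counts in the wild type. It had 93, 154 and 189 counts in *cer7-3* and 39 and 72 in *cer7-4*. In *rst1* the counts were 39 to 76 (median 54) and in *ripr* 20 to 92 (median 60). No mutant library reached down to the wild type. In CPM, wild-type libraries averaged 21.0 ± 10.7 (SD, n = 3) for *bZIP2*, *cer7* libraries 328 ± 135 (SD, n = 5), *rst1* libraries 234 ± 56.7 (SD, n = 6) and *ripr* libraries 200 ± 70.0 (SD, n = 6). *cer7* raised it by a log2 fold change of 3.97 (standard error 0.46, adjusted p = 2.85e-07 in edgeR's quasi-likelihood test), and it was also raised in *rst1* (3.47) and in *ripr* (3.26).

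*bZIP53* (*AT3G62420*, chromosome 3 from 23091586 to 23092850, minus strand), a factor that also acts on seed maturation genes, had 2, 3 and 0 counts in the wild type. It had 12, 37 and 48 counts in *cer7-3* and 15 and 25 in *cer7-4*. In *rst1* the counts were 9 to 20 (median 16) and in *ripr* 14 to 36 (median 18.5). All mutant libraries lay above all wild-type libraries. The log2 fold change in *cer7* was 3.36 (standard error 0.58), 2.88 in *rst1* and 3.17 in *ripr*, with adjusted p of 8.18e-05, 0.00106 and 0.000276 in edgeR's quasi-likelihood test. With 5 wild-type counts in all, the ratio of pooled reads was 10.9 in *cer7* (exact 95% counting interval 4.56 to 34.1), and such intervals cover counting error only. Without wild-type replicate 3, the library at 0, the log2 fold change in *rst1* was 2.19 and the call was lost (adjusted p = 0.0186, edgeR).

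*bZIP44* (*AT1G75390*, chromosome 1 from 28291698 to 28293008, plus strand) had 2, 2 and 1 counts in the wild type. In *cer7-3* it had 21, 27 and 19 counts and in *cer7-4* 8 and 16. The counts were 3 to 13 (median 10) in *rst1* and 5 to 19 (median 8.5) in *ripr*. The scaled values did not overlap the wild type in any mutant. Its log2 fold change in *cer7* was 2.77 (standard error 0.56, adjusted p = 0.000417), 2.07 in *rst1* (adjusted p = 0.0132, not called) and 2.16 in *ripr* (adjusted p = 0.00863) in edgeR's quasi-likelihood test. The pooled ratio in *cer7* was 7.24 (exact 95% counting interval 2.99 to 22.8). The call in *ripr* was kept in 10 of 20 fits that each left out 1 library, and was lost without any 1 of the 3 wild-type libraries, where the adjusted p was at most 0.0721.

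*bZIP11* (*AT4G34590*, chromosome 4 from 16521861 to 16523230, plus strand), the factor in which sucrose control of translation is best known, had 2, 5 and 7 counts in the wild type. It had 23, 32 and 32 counts in *cer7-3* and 10 and 18 in *cer7-4*, with 6 to 19 (median 11.5) in *rst1* and 4 to 22 (median 13.5) in *ripr*. The groups did not overlap in *cer7*, and 5 of 6 libraries lay above every wild-type library in *rst1* and in *ripr*. Its log2 fold change in *cer7* was 1.67 (standard error 0.43, adjusted p = 0.00335, edgeR's quasi-likelihood test), 1.18 in *rst1* (adjusted p = 0.0544) and 1.13 in *ripr* (adjusted p = 0.0653). The *cer7* call did not survive leaving out wild-type replicate 1 (1.33, adjusted p = 0.0380 in edgeR), wild-type replicate 2 or *cer7-4* replicate 3. *bZIP1*, the fifth gene of the group, did not pass the filter, with 1, 2 and 2 counts in the wild type, 1 to 8 in *cer7*, 1 to 6 in *rst1* and 2 to 10 in *ripr*. The uORF peptides of *bZIP1* and *bZIP53* had 25 and 28 residues, and those of *bZIP2*, *bZIP11* and *bZIP44* had 41 or 42.

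*SAC51* encodes a bHLH factor found through suppression of a thermospermine-deficient dwarf, and thermospermine acts on translation of this group through the uORFs. *SAC51* (*AT5G64340*, chromosome 5 from 25730335 to 25733313, minus strand) had 4, 5 and 5 counts in the wild type, 33, 29 and 25 in *cer7-3* and 13 and 12 in *cer7-4*. In *rst1* the counts were 8 to 15 (median 12) and in *ripr* 7 to 19 (median 11.5). Scaled values lay above the wild type in every mutant library. The log2 fold change in *cer7* was 1.62 (standard error 0.35, adjusted p = 0.000813 in edgeR's quasi-likelihood test), 1.11 in *rst1* (adjusted p = 0.0284) and 0.98 in *ripr* (adjusted p = 0.0537), so it was raised in *cer7* and not called in *rst1* or *ripr*. Without a filter on low counts the call in *cer7* was lost (adjusted p = 0.0147, edgeR).

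*bHLH143* (*AT5G09460*, chromosome 5 from 2943738 to 2946839, minus strand), with 3 uORFs like *SAC51*, had 5, 4 and 3 counts in the wild type. It had 27, 41 and 17 counts in *cer7-3* and 19 and 16 in *cer7-4*. The counts were 7 to 16 (median 10) in *rst1* and 10 to 27 (median 19.5) in *ripr*. No mutant overlapped the wild type in scaled values. The log2 fold change in *cer7* was 1.95 (standard error 0.38, adjusted p = 0.000306, edgeR's quasi-likelihood test), 1.16 in *rst1* (adjusted p = 0.0389, not called) and 1.69 in *ripr* (adjusted p = 0.00213). The *ripr* call did not survive leaving out wild-type replicate 2 (adjusted p = 0.0231) or replicate 3 (1.39, adjusted p = 0.0325), in edgeR. The other 2 genes of the group did not pass the filter. *bHLH145* had 0 counts in each wild-type library and at most 4 in any mutant library, and *bHLH144* had 3, 0 and 5 in the wild type and at most 4 in the mutants.

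*CRF10* (*AT1G68550*, chromosome 1 from 25725455 to 25727701, minus strand) encodes an AP2/ERF factor of the cytokinin response factor family and has the longest uORF peptide of the 33, with 87 residues. Its wild-type counts were 1, 2 and 9. It had 24, 36 and 22 counts in *cer7-3* and 14 and 22 in *cer7-4*, with 6 to 10 (median 9) in *rst1* and 3 to 15 (median 9) in *ripr*. All *cer7* libraries lay above the wild type, whereas 2 of 6 libraries did so in each of the other mutants. The log2 fold change in *cer7* was 1.96 (standard error 0.45, adjusted p = 0.00156, edgeR's quasi-likelihood test), 0.89 in *rst1* (adjusted p = 0.208) and 0.78 in *ripr* (adjusted p = 0.281). The scaled level of wild-type replicate 3 was 39.7 CPM, where the other 2 had 5.1 and 9.6. The *cer7* call did not survive leaving out wild-type replicate 1 (1.52, adjusted p = 0.0193) or replicate 2 (adjusted p = 0.0225), and without wild-type replicate 3 the log2 fold change was 3.15, in edgeR.

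*AT1G70780*, a gene of unknown function (chromosome 1 from 26695166 to 26696392, minus strand), had the most wild-type reads of the 33, with 11, 7 and 7 counts. It had 49, 50 and 61 counts in *cer7-3* and 32 and 37 in *cer7-4*, 12 to 26 (median 24.5) in *rst1* and 13 to 32 (median 21.5) in *ripr*. Scaled values did not overlap the wild type in any mutant. Wild-type libraries averaged 40.2 ± 13.9 CPM (SD, n = 3), *cer7* libraries 144 ± 17.2 (SD, n = 5), *rst1* libraries 88.0 ± 14.2 (SD, n = 6) and *ripr* libraries 77.6 ± 13.8 (SD, n = 6). Its log2 fold change in *cer7* was 1.85 (standard error 0.26, adjusted p = 5.98e-06), 1.15 in *rst1* (adjusted p = 0.00289) and 0.97 in *ripr* (adjusted p = 0.0101, not called) in edgeR's quasi-likelihood test. The call in *rst1* was lost without wild-type replicate 2, wild-type replicate 3 or *rst1-2* replicate 2, with log2 fold changes of 0.90 to 1.10, and with DESeq2 (adjusted p = 0.0160). *AT1G23150*, whose uORF peptide is alike, had 1, 4 and 0 counts in the wild type and at most 6 in the mutants. *AT1G64140*, also little known, had 6, 6 and 4 wild-type counts and was called in no mutant (log2 fold changes 0.92, 0.47 and 1.07 in *cer7*, *rst1* and *ripr*).

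**Figure D3:**
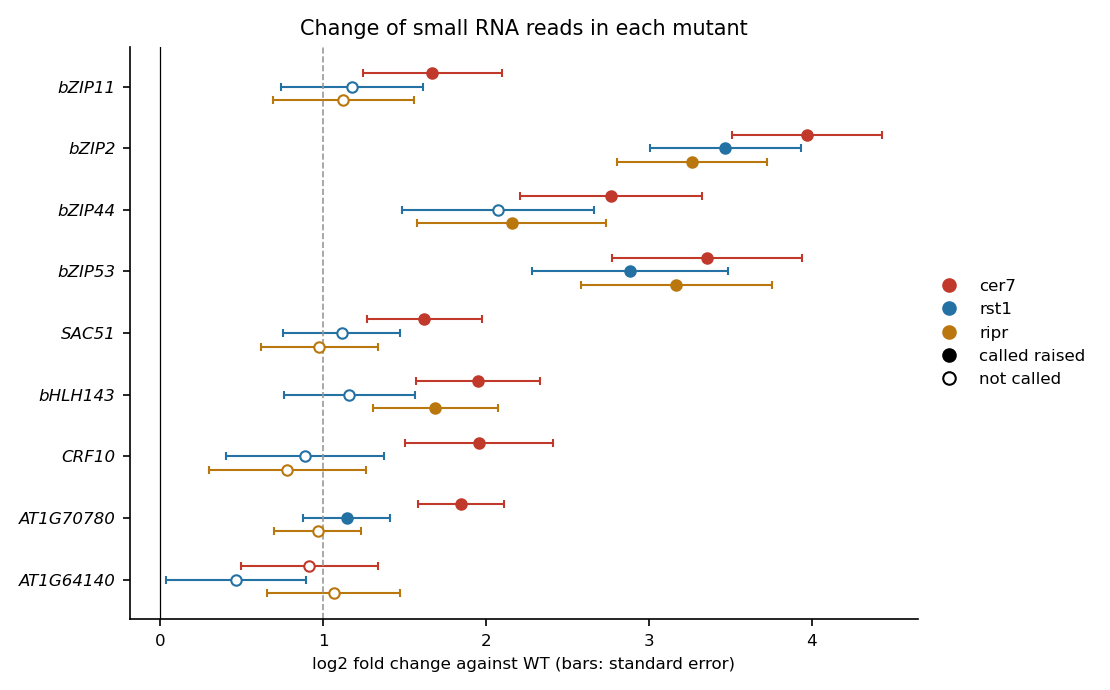
The log2 fold change against WT, with its standard error as bars, of the 9 genes tested in *cer7*, *rst1* and *ripr*. Filled points were called raised and open points were not, the dashed line marks a log2 fold change of 1, and *bZIP2* and *bZIP53* lie furthest to the right, between 2.88 and 3.97.

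Per kilobase of transcript, *bZIP2* had the highest level in each mutant, with 266 CPM in *cer7*, 190 in *rst1* and 163 in *ripr*, against 17.1 in the wild type. *AT1G70780* came next in each mutant (127, 77.5 and 68.3) and was highest in the wild type at 35.3. The remaining 7 tested genes had 17.4 to 67.5 CPM per kilobase in *cer7*. The transcripts of the 8 genes raised in *cer7* had a median length of 1317.5 bases and 1 to 4 exons, and those of the other 25 genes 1956 bases and 1 to 16 exons. Of these 25 only *AT1G64140* had enough reads to be tested, so most of them were not shown to be unchanged. The median of the mean wild-type counts was 4.17 for the 8 genes and 1.33 for the 25.

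Most of the 24 genes outside the filter had a handful of reads, with 1 to 151 counts over all 20 libraries (median 46) and no more than 18 in any library. *NMT1*, which makes phosphocholine, had the most, with 1, 1 and 5 counts in the wild type, 6 to 18 in *cer7*, 5 to 11 in *rst1* and 3 to 11 in *ripr*. Its paralog *NMT2*, with a nearly identical uORF peptide, had 1, 6 and 1 in the wild type and at most 6 in the mutants. *AT5G61230*, an ankyrin repeat gene, had 0 to 4 wild-type counts and 6 to 15 in *cer7*. The 24 genes together averaged 141 ± 31.0 CPM (SD, n = 3) over wild-type libraries, 273 ± 13.8 (SD, n = 5) over *cer7* libraries, 222 ± 20.4 (SD, n = 6) over *rst1* libraries and 221 ± 35.0 (SD, n = 6) over *ripr* libraries. Every mutant library lay above every wild-type library in this sum, whose ratio to the wild type was 1.93, 1.57 and 1.56. The summed reads of all genes outside the filter, scaled in the same way, also lay above every wild-type library in every mutant library. The separation is therefore not particular to the 24 genes. How the size of their rise compares with that of all genes outside the filter was not tested.

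Other transcription factor genes among the 24 stayed near the limit of detection. *LHW*, a bHLH gene of root vascular development, had 3, 5 and 2 wild-type counts and 0 to 8 per mutant library, and its relative *AT2G31280* had 1 in each wild-type library and 0 to 6 in the mutants. *HSFB1*, a heat shock factor that also acts in immunity, and *HB1*, an HD-Zip factor, had at most 2 counts in a wild-type library and at most 6 in a mutant library. The trehalose phosphate phosphatase genes *TPPF* and *TPPG* had at most 3 counts in any library. Among the kinase genes, *GRIK1*, which activates the energy sensor SnRK1, had at most 7, *WNK10* at most 9 and *AT5G45430* at most 8. *AT1G36730*, annotated as a translation initiation factor, had 1 to 3 wild-type counts and 1 to 10 per mutant library. *AT1G58120* had 1 count in all 20 libraries. The last 7, *AT5G01710*, *AT4G25690*, *AT5G52550*, *AT1G16860*, *AT3G53400*, *AT3G12010* and *AT1G23150*, had at most 4 counts in a wild-type library and at most 10 in a mutant library.

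**Figure D4:**
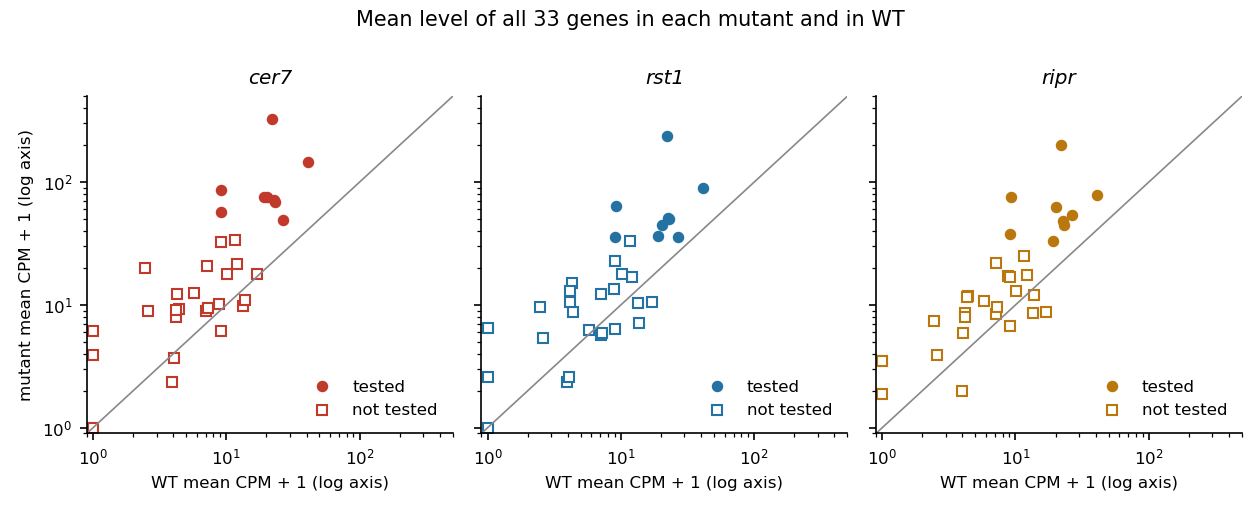
Mean level of each of the 33 genes in a mutant (y axis) against the wild type (x axis), as CPM + 1 on log axes, with filled circles for the 9 tested genes, open squares for the 24 others and a line of equal level. All 9 circles lie above the line in each mutant, and 18, 15 and 19 of the 24 squares in *cer7*, *rst1* and *ripr*. The 9 passed the filter through mutant libraries, and the share of all genes above such a line was not counted. In a fit without a filter the median log2 fold change of all genes with a count was also positive (0.42, 0.17 and 0.21).

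Over all 33 genes, every *cer7* library lay above every wild-type library in 12, every *rst1* library in 7 and every *ripr* library in 8, against 7.04%, 3.04% and 3.55% of the 25497 genes with a count. Of the 9 tested genes these were 8, 6 and 7, against 22.6%, 15.8% and 16.2% of all genes tested, with the limit of the filter given above. *NMT1*, *AT5G45430*, *AT5G61230* and *AT3G53400* were the 4 untested genes without overlap in *cer7*, and *AT5G01710* was the only one in *rst1* and in *ripr*. In a fit without a filter, which holds all 33 genes, 7, 2 and 2 were raised in *cer7*, *rst1* and *ripr*, against 2.03%, 0.91% and 1.08% of 25497 genes with a count. All of these were among the 9. The median log2 fold change of the 33 was 1.27, 1.08 and 1.10 in this fit, where that of the 25497 genes was 0.42, 0.17 and 0.21. It was 1.19, 0.81 and 1.04 with the 3 genes that had no wild-type count set to a bound from 3 counts over the wild type.

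The uORF genes were then set beside other genes of similar wild-type count. Among tested genes with a mean of 3 to 10 wild-type counts, 6 of the 7 uORF genes were raised in *cer7*, 2 of 7 in *rst1* and 2 of 7 in *ripr*, against 16.7%, 9.02% and 8.84% of 1097 other genes. All 7 had passed the filter through mutant libraries, whereas other genes with means near 10 can pass on wild-type reads alone. The 2 sets are thus not matched in how they passed, and their shares and medians are a description. Among those with a mean under 3, 2 of 2 (*bZIP44* and *bZIP53*) were raised in *cer7*, 1 in *rst1* and 2 in *ripr*, against 67.6%, 38.1% and 39% of 367 other genes, which had passed the filter through mutant libraries too. The median log2 fold change at a mean of 3 to 10 was 1.85, 1.15 and 1.07 for the 7 uORF genes in *cer7*, *rst1* and *ripr*, and 0.59, 0.42 and 0.35 for the other genes. At a mean under 3 it was 3.06, 2.48 and 2.66 for the 2 uORF genes, and 2.53, 1.96 and 2.00 for the others. Without a filter, 5 of 8 uORF genes with a mean of 3 to 10 were raised in *cer7* against 5.33% of other genes, 1 of 8 in *rst1* against 2.97% and 1 of 8 in *ripr* against 3.09%. With a mean under 3, 2 of 25 were raised in *cer7*, 1 in *rst1* and 1 in *ripr*, against 1.49%, 0.553% and 0.74% of other genes. Within its range of counts *bZIP2* had a larger log2 fold change than 98.8% of other genes in *cer7*, 99.0% in *rst1* and 98.8% in *ripr*. In theirs, *bZIP53* exceeded 75.2%, 74.9% and 80.7%, and *bZIP44* 59.1%, 52.9% and 57.5%.

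The mutants were also compared with each other. None of the 9 genes was called in *cer7* against *rst1*, *cer7* against *ripr* or *rst1* against *ripr* with edgeR, where 2.5%, 2.95% and 0.617% of all genes tested were called in either direction, and none with DESeq2. At an unadjusted p under 0.05 the numbers were 5, 4 and 1 of the 9, against 19.3%, 23.1% and 6.24% of all genes tested. The log2 difference was positive for all 9 genes in *cer7* against *rst1* (0.45 to 1.07) and for 8 of 9 in *cer7* against *ripr* (-0.15 to 1.18), while *rst1* against *ripr* gave -0.60 to 0.21. With library size in place of TMM scaling, the 8 genes called in *cer7* differed from *rst1* by 0.14 to 0.75, and *bZIP53* and *bHLH143* were both negative in *cer7* against *ripr*. That scaling moved the median of all genes from 0.01 to -0.31 in *cer7* against *rst1* and from 0.03 to -0.27 in *cer7* against *ripr*. The alleles of a gene were compared in a fit with 7 groups that held 10 of the 33 genes, *NMT1* in addition. None was called between *cer7-3* and *cer7-4*, *rst1-2* and *rst1-3*, or *ripr(insT)* and *ripr(insC)* by edgeR, where 0.33%, 0.18% and 0% of 3329 genes were. At an unadjusted p under 0.05 there were 1, 0 and 0, against 14.1%, 7.21% and 2.94% of these genes, the 1 being *bZIP2*, higher in *cer7-3* by 0.84 on the log2 scale (adjusted p = 0.297).

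Among 34 relatives and partners of these genes, such as the group C bZIP factors, the other trehalose phosphate phosphatases and the SnRK1 kinases, 3 passed the filter. *HB16* (*AT4G40060*), an HD-Zip factor like *HB1*, was raised in *cer7* (log2 fold change 2.46, standard error 0.49) and in *rst1* (1.95, standard error 0.51), and had 1.72 in *ripr* without a call. No other relative was called in a mutant. Of all genes tested, 17.4% were raised in *cer7* and 9.95% in *rst1*. *HB16* had 1 to 3 counts in the wild-type libraries. Among the 367 tested genes outside the 33 with a mean under 3 wild-type counts, 67.6% were raised in *cer7* and 38.1% in *rst1*. The calls of *HB16* are therefore a description.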

How the data were processed

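The deposited values are raw counts of reads of 21 and 22 nt per gene, 1 column for each of the 20 libraries. The authors trimmed reads with cutadapt (version 1.18) and aligned them without mismatches to TAIR10 in the unique mode of ShortStack. The counting tool and the handling of strand and overlapping genes are not given in the sources used here. All columns were used (0 left out). Replicates differed by more than sampling noise in all 19 pairs of an allele (chi-square per degree of freedom 3.79 to 11.8) and are separate samples by the labels.

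Counts were filtered with filterByExpr (minimum count 10, minimum total 15), scaled by TMM and fitted in 1 model of 4 genotypes with glmQLFit at its default settings in edgeR (version 4.0.16, R version 4.3.3). Tests used glmQLFTest, with Benjamini-Hochberg adjustment across the 2916 genes. Robust estimation in glmQLFit was added as an alternative after seeing the data, as were the fits without repeated entries. DESeq2 (version 1.42.0), named in the study's methods, was also run. CPM are per 1000000 counts on the tested genes times the TMM factor. The fitting steps were tested on simulated data.

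The 33 genes and the lists were chosen with earlier results of these data known. Full statistics are given for genes called against the wild type, counts for all bZIP and *SAC51* group genes, and counts or ranges for the rest. Relatives are named where called. Gene positions and uORFs come from the TAIR10.1 annotation, in which all 33 identifiers were found.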

Additional observations from a re-analysis of the deposited data

Results flagged for a closer look

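The mutants differed from each other for *CRF10* and *AT1G70780* at an adjusted p under 0.05 in edgeR's quasi-likelihood test, without reaching both thresholds of a call. *CRF10* was higher in *cer7* than in *rst1* by 1.07 on the log2 scale (standard error 0.31, adjusted p = 0.0426) and higher than in *ripr* by 1.18 (standard error 0.31, adjusted p = 0.0191). The *cer7* libraries of *CRF10* were at 56.3 to 93.6 CPM, and the *rst1* and *ripr* libraries at 10.8 to 47.1 CPM. *AT1G70780* was higher in *cer7* than in *rst1* by 0.70 (standard error 0.18, adjusted p = 0.0200) and than in *ripr* by 0.88 (standard error 0.18, adjusted p = 0.00229). Its *cer7* libraries were at 127.9 to 166.3 CPM and the others at 67.2 to 102.2 CPM. How many of all genes tested were separated in this way was not counted. At an unadjusted p under 0.05 in the same test, 19.3% of them differed between *cer7* and *rst1* and 23.1% between *cer7* and *ripr*. With library size in place of TMM scaling the adjusted p in edgeR was 0.103 and 0.0507 for *CRF10* and 0.138 and 0.0241 for *AT1G70780*. Total counts were 305475 to 522464 in *cer7*, 192747 to 296842 in *rst1* and 193616 to 371040 in *ripr*, and their part in the differences was not tested.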

How the results depend on the processing

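No gene reversed its direction in any call, and 1484 of 1535 alternative values of single genes kept their side of the threshold. The number raised, 8, 3 and 4 in *cer7*, *rst1* and *ripr*, was 4, 1 and 2 with glmTreat, which tests for a change beyond the fold threshold. At an adjusted p of 0.05 it was 6 in *rst1*, and 1 gene (*CRF10*) differed between *cer7* and *rst1* and 1 between *cer7* and *ripr*. Without a filter on low counts it was 2 in *ripr*. Leaving out 1 library at a time gave 6 to 9 raised in *cer7*, 1 to 4 in *rst1* and 2 to 5 in *ripr*, and 0 to 1 different between *cer7* and *ripr*. These fits tested 9 or 10 of the 33 genes. The 9 raised in *cer7*, without wild-type replicate 3, and the 5 in *ripr*, without *rst1-3* replicate 3, were each out of 10. Without wild-type replicate 3 there was 1 in *rst1* and 2 in *ripr*, and without wild-type replicate 2 there were 2 in *ripr*. The 1 difference, *CRF10*, came without wild-type replicate 3 and without *cer7-4* replicate 1. The causes of these changes were not tested. With the replicate number as a block, 8, 3 and 3 were raised, *bZIP44* in *ripr* being lost (adjusted p = 0.0103, edgeR). The labels number the library series 1, 2 and 4 and place the replicates of a genotype at separate dates and chambers, without saying whether genotypes of 1 number were grown together, so a shared batch cannot be told from them. Deviations of each library from the mean of its allele correlated at -0.16 to 0.27 over 57 pairs of same-numbered libraries (median 0.067, 14 above 0.1). Pairs of other numbers had -0.25 to 0.17 over 114 pairs (median -0.033, 5 above 0.1). Such deviations cancel within an allele, so higher values in same-numbered pairs bring lower values in the others. The sets of pairs are therefore not independent. Of 20 libraries, 15 correlated best with one of their own number. DESeq2 called 8, 2 and 3. Robust estimation and the fits without repeated entries, chosen after seeing the data, gave 8, 3 and 4. Of 15 calls, 9 held in every fit that left out 1 library, among them *bZIP2* in all 3 mutants. In the fit without a filter none of the 24 genes outside it was called, with a lowest adjusted p of 0.0508, 0.322 and 0.412 in *cer7*, *rst1* and *ripr* (edgeR).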

Other observations

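A further 50 genes with an annotated uORF lie outside the 33, and 13 of them passed the filter. Of these, 7 were raised in *cer7*, 6 in *rst1* and 6 in *ripr*, and none was lowered by edgeR, with median log2 fold changes of 1.24, 1.38 and 1.56. Of all genes tested 17.4%, 9.95% and 9.91% were raised, with medians of 0.07, 0.09 and 0.07. Of the 13 genes 7 had under 10 counts in every wild-type library. Genes with few wild-type reads can pass the filter through mutant libraries, and the counts are a description. The *AdoMet decarboxylase* gene *AT3G02470* had the highest log2 fold change of these in each mutant, with 7.21, 4.99 and 4.66. The auxin response factor genes *AT1G30330*, *AT2G33860* and *AT5G20730* were raised in all 3 mutants. For mRNAs targeted by microRNAs, the paper proposes that siRNAs could start from a fragment left by cleavage. Which of the genes named here are such targets was not examined. The part of the uORF in their rise was not tested. Of the 2916 tested entries of the table, 18 repeat the counts of another entry in all 20 libraries.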
